A study of Mus musculus with 5 samples.

Results

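The 6 mouse Dlx genes lie in 3 linked pairs, Dlx1 with Dlx2, Dlx3 with Dlx4 and Dlx5 with Dlx6, and the trimethylation of histone H3 at lysine 27 (H3K27me3) over these pairs was read in dermal fibroblasts from embryonic skin. The members are the genes of this family, 6 of the 21951 protein-coding genes of the annotation, and each pair was taken with 5 kb on either side. The study asked how H3K27me3 differs between fibroblast progenitors and later fibroblasts of the embryo. Chromatin immunoprecipitation and sequencing (ChIP-seq) gave 4 libraries from wild-type skin, 2 labelled E14 and 2 labelled E17, each with its own peak list. The study's methods stage these embryos as E14.5 and E18.5, and the stage names of the labels are kept here. The cells were dermal preparations expanded in culture, so a peak describes cultured cells, and whether the 2 libraries of a stage came from separate animals is not stated. The p-values below therefore concern only these 4 libraries, whose differences may be technical, and they do not measure the size of the spread between them.

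Dlx genes encode homeodomain transcription factors of the Distal-less family, and the members of a pair face each other, with their 3′ ends towards a shared stretch that holds enhancers used by both. They act in the branchial arches, the ventral forebrain, the limb buds and the ectoderm, and combinations of them set the identity of upper and lower jaw. H3K27me3 is laid down by Polycomb repressive complex 2 and typically spreads in broad domains over developmental regulators that a cell type does not use.

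The 4 lists differed widely in size before any Dlx gene was considered. They held 21546 and 16574 peaks at E14 and 10429 and 7107 at E17. Their peaks covered 52804492 and 32078094 bp at E14 and 19996226 and 14337405 bp at E17, a mean 59.6% shorter at E17. The depth of sequencing could not be read from these lists, and its part in this difference was not tested. As a check of the labelled cell type, none of 9 fibroblast marker genes, among them Col1a1, Pdgfra and Twist2, had a peak within 3000 bp of a transcription start site in any library. The same held for 74.1% of all protein-coding genes and for most markers of some other cell types given below, so this count does not set fibroblasts apart.

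All 6 Dlx genes were marked in all 4 libraries, that is, they had a peak within this distance of a start site, a state shared by 12% of the 21951 protein-coding genes. None was marked in both E14 libraries and unmarked in both E17 libraries, which held for 23.8% of the 4270 protein-coding genes marked in both E14 libraries. With peaks of −log10 q of at least 5, or with lists cut to equal covered length, Dlx2 was not marked in every library, and 5 of 6 were. Over the 3 windows together, 68.1% of the sequence lay under a peak in all 4 libraries and 11.5% in none. A further 6.71% was covered in both E14 libraries and in neither E17 library, and 0% in both E17 libraries and neither E14 library. No stretch of the 3 windows was thus marked at E17 alone in both libraries.

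**Figure D1:**
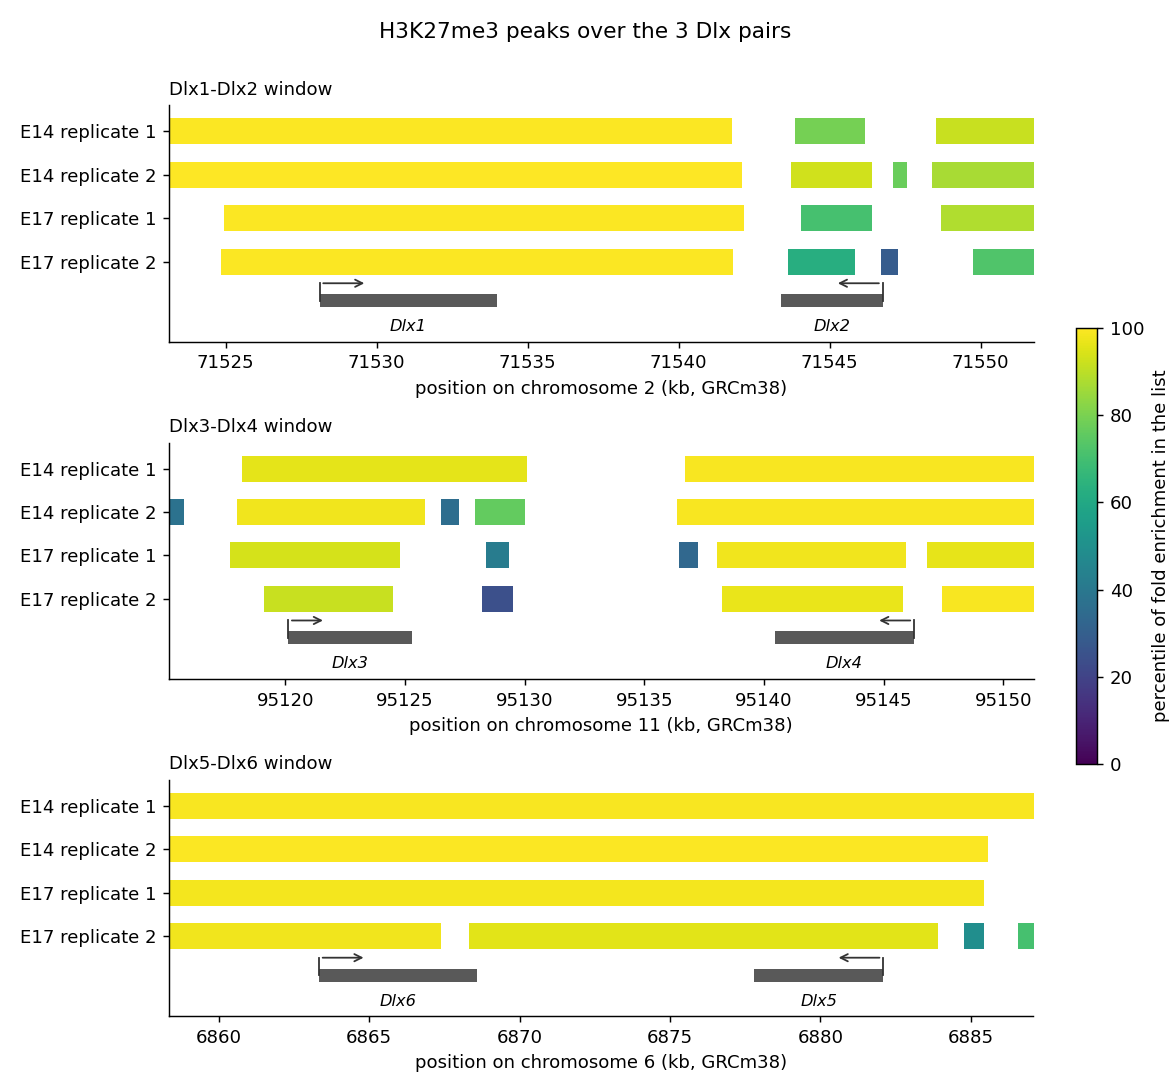
Peaks of the 4 libraries over the 3 Dlx windows, each pair with 5 kb on either side, with the position in kb on the horizontal axis and 1 row per library; colour gives the percentile of a peak's fold enrichment in its own list, grey boxes are genes and arrows start at the outermost start site. Every window holds peaks in all 4 libraries. The interruptions at the starts of Dlx2 and Dlx4, the gap at the 3′ end of Dlx2 and the broad gap between Dlx3 and Dlx4 can be seen.

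Dlx1 and Dlx2, which act together in the development of forebrain GABAergic neurons and in the proximal part of the arches, lie on chromosome 2 (window chr2:71523113-71551754, GRCm38). Peaks covered 24221 and 25502 bp of this window at E14 and 22647 and 21795 bp at E17. Both E17 libraries thus lay below both E14 libraries, with means of 24862 ± 906 bp at E14 and 22221 ± 602 bp at E17 (SD, n = 2 each), 10.6% shorter (exact permutation test, two-sided, p = 0.333). With 2 libraries against 2, 0.333 is the smallest p this test can give, so no comparison of the stages here can reach 0.05. Within the pair itself, from the start of Dlx1 to the start of Dlx2, 15986 and 16695 bp were covered at E14 and 16404 and 16004 bp at E17, and the stages overlapped.

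Dlx1 lay under a single wide peak in each library. This peak measured 20053 and 19270 bp at E14 and 17206 and 16973 bp at E17, and it covered 100% of the gene in all 4. Its downstream edge, towards Dlx2, varied by 370 bp over the 4 libraries and its upstream edge by 3217 bp. The upstream edge set the stages apart, since the 5 kb before Dlx1 were 100% covered in both E14 libraries, 63.3% in E17 replicate 1 and 65.3% in E17 replicate 2. The same peak was the strongest of the window, where strength is the fold enrichment over local background and its percentile is the share of the list's peaks at or below it. Its percentile was 99.4 and 99.8 at E14 and 99.5 and 99.3 at E17, so the Dlx1 peak stood near the top of lists of very different length.

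Dlx2 was covered in part. Of the gene, 69.2% and 80.7% were covered at E14 and 70.6% and 68.7% at E17, and the stages overlapped. With peaks of −log10 q of at least 5 the stages were apart, and the gene had no cover in either E17 library, a change of −100%. With lists of equal covered length the change was 72.6%, and the stages overlapped there too. The peak inside Dlx2 was much weaker than that over Dlx1, at percentiles of 79.2 and 92.7 at E14 and 70.3 and 62.5 at E17. The mark was interrupted at the start of the gene, where a stretch of 284 bp (chr2:71546421-71546704) lay under no peak in any library. The same held for 2 longer stretches of the window. They were 1456 bp that reach into the 3′ end of Dlx2 (chr2:71542154-71543609) and 846 bp beyond its start (chr2:71547559-71548404). The outermost start site of Dlx2 was 587 and 335 bp from the nearest peak at E14 and 334 bp from it in E17 replicate 1. In E17 replicate 2 this start site lay under a small peak of 568 bp at percentile 28.8.

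The promoters of this pair are shown because one was covered in every library and the other in 1. RefSeq promoter sequences (GRCm38.p6, 250 bases before to 50 after a start) were matched for 2 of the 6 genes, Dlx1 and Dlx2, and not for Dlx3, Dlx4, Dlx5 and Dlx6. The Dlx1 promoter (chr2:71529195-71529494, plus strand) lies within exons of the longer GENCODE gene, and all 300 bases were under the wide peak in all 4 libraries. The Dlx2 promoter (chr2:71546705-71547004, minus strand) has its last 50 bases in an exon of the gene, and 0 of its 300 bases were covered in both E14 libraries and E17 replicate 1, against 300 in E17 replicate 2. Both are printed 5′ to 3′ with CG dinucleotides (CpG, searched as CG, which reads the same on both strands) in capitals.
Dlx1: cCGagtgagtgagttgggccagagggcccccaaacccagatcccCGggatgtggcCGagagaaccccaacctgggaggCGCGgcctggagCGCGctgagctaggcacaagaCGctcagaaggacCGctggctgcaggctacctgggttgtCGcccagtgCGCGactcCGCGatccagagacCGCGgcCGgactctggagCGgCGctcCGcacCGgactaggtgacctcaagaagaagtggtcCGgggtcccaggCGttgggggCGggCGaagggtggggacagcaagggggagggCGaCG
Dlx2: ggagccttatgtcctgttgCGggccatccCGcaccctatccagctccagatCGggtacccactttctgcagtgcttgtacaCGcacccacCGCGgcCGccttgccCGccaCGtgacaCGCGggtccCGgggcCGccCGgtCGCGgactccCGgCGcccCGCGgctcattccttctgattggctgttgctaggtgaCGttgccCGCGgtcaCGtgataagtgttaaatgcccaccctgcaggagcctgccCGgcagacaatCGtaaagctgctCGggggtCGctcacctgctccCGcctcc
The Dlx1 promoter holds 27 CpG and the Dlx2 promoter 29, where the median of the 32851 RefSeq promoters of this length is 7. At least 27 were found in 15.5% of those promoters and at least 29 in 12.9%. Both promoters are thus rich in CpG, and their CpG number does not separate the covered one from the other.

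Dlx5 and Dlx6, which give the lower jaw its identity, lie on chromosome 6 (window chr6:6858334-6887085), and Dlx5 also acts in bone-forming cells. A single peak spanned both genes in 3 libraries. It was 45381 bp wide in E14 replicate 1, 38578 bp in E14 replicate 2 and 39454 bp in E17 replicate 1. These widths ranked 21, 11 and 6 in their lists, so this was among the widest domains of each. In E17 replicate 2 the domain was divided, with peaks of 13120 and 15602 bp over Dlx6 and Dlx5, and the wider of these ranked 83 in width.

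Covered length in the Dlx5-Dlx6 window was 28752 and 27223 bp at E14 and 27117 and 25847 bp at E17. The means, 27988 ± 1081 bp at E14 and 26482 ± 898 bp at E17 (SD, n = 2 each), differed by 5.38% (exact permutation test, two-sided, p = 0.333). The lower E14 and the higher E17 library were 106 bp apart, a gap far smaller than the 1529 bp between the E14 libraries and the 1270 bp between the E17 libraries. Dlx5 was 100% covered in all 4 libraries and Dlx6 in 3, with 82.4% in E17 replicate 2, where a gap of 921 bp (chr6:6867393-6868313) falls inside the gene. The 9236 bp between the genes, which hold enhancers of the pair, were 100% covered in all 4 libraries. Beyond the start of Dlx5, the 5 kb flank was 100% and 69.4% covered at E14 and 67.3% and 60.3% at E17.

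The strongest peak over Dlx5 and Dlx6 stood at percentile 99.0 and 99.4 at E14 and 98.1 and 97.8 at E17. Its rank from the top was 206 and 103 at E14 and 204 and 157 at E17, so that the E17 ranks lay between those of E14. A given rank is a lower percentile in a shorter list, so these percentiles are not read as a difference between the stages. The Dlx5-Dlx6 domain was in the top few percent of each list. Joined over gaps under 3000 bp, it formed 1 block that filled the whole window in each library, of 49012 and 44601 bp at E14 and 45845 and 43818 bp at E17. The block reached much farther past the start of Dlx6, by 18305 to 19649 bp over the 4 libraries, than past the start of Dlx5, by 6761 to 10969 bp.

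Dlx3 and Dlx4 lie on chromosome 11 (window chr11:95115119-95151263). Dlx3 acts in the differentiating epidermis, the hair shaft, teeth and placenta, and Dlx4 is the less studied partner. Peaks covered 26487 and 26221 bp of this window at E14 and 21198 and 18033 bp at E17. The means were 26354 ± 188 bp at E14 and 19616 ± 2238 bp at E17 (SD, n = 2 each), 25.6% shorter (exact permutation test, two-sided, p = 0.333), which was the largest of the 3 differences. The gap between the stages, 5023 bp from the lower E14 to the higher E17 library, exceeded the 3165 bp between the E17 libraries.

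Dlx3 was 100% covered in both E14 libraries, 89.8% in E17 replicate 1 and 84.4% in E17 replicate 2, and the uncovered part was the 3′ end. Of its exons alone, 79.8% and 69.0% were covered at E17. Its start site lay under a peak in all 4 libraries. That peak was 11901 bp wide in E14 replicate 1, 7839 bp in E14 replicate 2, 7084 bp in E17 replicate 1 and 5382 bp in E17 replicate 2. Its percentile was 95.9 and 97.7 at E14 and 93.4 and 91.7 at E17, below that of the strongest peak over the partner gene in every list. Its rank was 877 and 375 at E14 and 685 and 591 at E17, and by rank the stages overlapped.

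Dlx4 was 100% covered in both E14 libraries by 1 peak of 16183 or 16481 bp that ran from the stretch between the genes past the start. At E17 the domain was divided at the start of the gene, and 94.4% of Dlx4 was covered in replicate 1 and 92.1% in replicate 2. A stretch of 878 bp (chr11:95145938-95146815) was covered in both E14 and neither E17 library, and it holds the outermost start site of Dlx4. That start was 326 and 462 bp from the nearest peak in the E17 libraries. The stretch had 55.8 CpG per kb, against 27.8 in the parts of the window covered in all 4 libraries, and the uncovered stretch at the start of Dlx2 had 81.0. These are single stretches at start sites, and all sequence of the Dlx3-Dlx4 window that was covered in both E14 and neither E17 library had 25.2 CpG per kb. Over the 3 windows that class had 20.4 CpG per kb and the parts under no peak 18.2, against 28.6 where all 4 libraries had a peak. In the Dlx1-Dlx2 window alone the parts under no peak had 33.3, against 32.1 where all 4 had a peak, and the Dlx5-Dlx6 window had no such parts. On both sides of the 878 bp stretch at Dlx4 the peaks stayed strong. The strongest peak of the Dlx3-Dlx4 window was at percentile 99.1 and 98.9 at E14 and 97.9 and 99.1 at E17.

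The sequence between Dlx3 and Dlx4 was covered in part. Of its 15150 bp, 56.5% and 49.2% were covered at E14 and 27.6% and 23.0% at E17. A run of 6289 bp (chr11:95130090-95136378) lay under no peak in any library, whereas the stretch between Dlx5 and Dlx6 had no gap in any. An isolated 936 bp (chr11:95128396-95129331) was covered in all 4 libraries, by a peak of its own in both E17 libraries at percentiles of 41.5 and 24.5.

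Set against the size of each list, the order of the stages turned. Per Mb covered by a list, Dlx1-Dlx2 held 459 and 795 bp at E14 and 1133 and 1520 bp at E17. Dlx3-Dlx4 held 502 and 817 bp at E14 and 1060 and 1258 bp at E17. Dlx5-Dlx6 held 544 and 849 bp at E14 and 1356 and 1803 bp at E17. All 3 pairs took a larger share of both E17 lists than of both E14 lists, with ratios of the means of 2.12, 1.76 and 2.27 (exact permutation test, two-sided, p = 0.333 for each). The windows were shorter by 5.38% to 25.6% while whole lists were shorter by 59.6%. Whole lists had a ratio of E17 to E14 covered length of 0.404. Near start sites, the 2645 protein-coding genes marked in all 4 libraries had a median ratio of 0.622. For the marked homeobox relatives of Dlx described below the median was 1. A larger share at E17 is thus not particular to the Dlx pairs. A window nearly filled by peaks, as Dlx5-Dlx6 was with 100% and 94.7% at E14, has little room for a gain in covered length. Dlx1-Dlx2, with 84.6% and 89.0%, and Dlx3-Dlx4, with 73.3% and 72.5%, had more room. The size of the larger share rested on single libraries, since without E14 replicate 1 it was 66.8% larger at E17 for Dlx1-Dlx2 and 41.8% for Dlx3-Dlx4, and without E14 replicate 2 it was 189%, 131% and 190% larger for the 3 pairs in the order given.

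Matching the lists in number of peaks and in covered length gave different answers. Both matchings left E17 replicate 2 whole, since its list was the smallest by either measure. The other lists lost their peaks of lowest −log10 q, so the stages were not cut alike. With every list reduced to an equal number of peaks, those of highest −log10 q, the changes in covered length were −10.6%, −25.2% and −5.38% for Dlx1-Dlx2, Dlx3-Dlx4 and Dlx5-Dlx6, and the share of the list was 56.6%, 31.9% and 67.3% larger at E17. When every list was reduced to the covered length of the shortest by keeping its peaks of highest −log10 q, Dlx1-Dlx2 was 10.1% longer at E17, while Dlx3-Dlx4 was 23.8% shorter and Dlx5-Dlx6 5.38% shorter. Under this matching the lists are nearly equal in covered length, so the share of the list only restates the covered length of the window. It was 10.0% larger at E17 for Dlx1-Dlx2 and lower for Dlx3-Dlx4 and Dlx5-Dlx6. The setting was added for the share after seeing the data. With peaks of −log10 q of at least 5 alone, the Dlx1-Dlx2 change was −25.1%, close to the −26.4% of Dlx3-Dlx4. Without its flanks, the Dlx1-Dlx2 pair was 0.835% shorter at E17, and with peaks closer than 3000 bp joined the Dlx5-Dlx6 difference was 0%. Joining also closed the interruptions at the starts of Dlx2 and Dlx4.

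**Figure D2:**
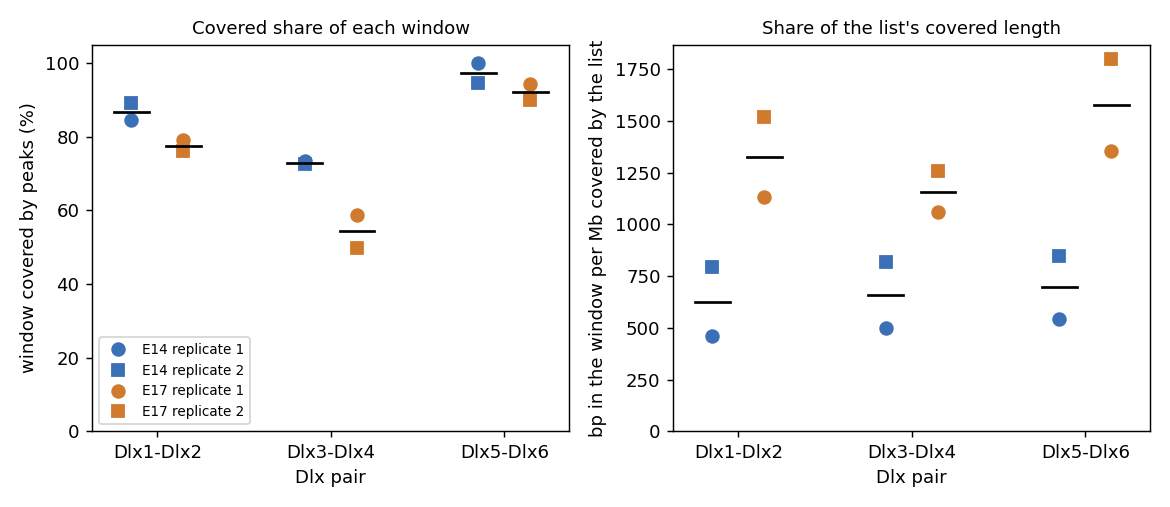
Percent of each Dlx window covered by peaks (left) and bp of the window per Mb covered by the whole list (right) for the 3 pairs; each point is a library, blue for E14 and orange for E17, circles for replicate 1 and squares for replicate 2, and black bars are means of 2. On the left both E17 points lie below both E14 points in each pair, by the widest margin for Dlx3-Dlx4, and on the right they lie above.

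The overlap of peaks over the Dlx pairs was also compared between libraries. The shares below cannot exceed the shorter covered length divided by the longer. They therefore fall where lengths differ, and are not read as differences in placement. Of the length covered by either library, 93.5% was shared by both at E14 and 87.3% at E17 within the 3 windows. Between stages the share was 80.7%, 80.8%, 86.1% and 89.1%, all below that of the E14 libraries, and that of the E17 libraries was exceeded by 1 of them, E14 replicate 2 with E17 replicate 1. Cover was shorter in both E17 libraries in each window, which by itself lowers the limit on the shares between stages. In the Dlx3-Dlx4 window, with the largest difference in length, the libraries of a stage shared 90.8% at E14 and 82.1% at E17. Between stages they shared 68.1% to 78.8% there. In the Dlx1-Dlx2 window the E17 libraries shared 87.0%, below the 88.6% and 88.5% of E17 replicate 1 with E14 replicates 1 and 2. In the Dlx5-Dlx6 window the highest share, 99.6%, lay between stages. Over the whole lists the E17 libraries shared more than the E14 libraries, 56.3% against 49.9%, and the share between stages ran from 25.8% to 48.3%. The covered lengths of the lists differ widely, so this order cannot be told from one of list size.

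Near the start sites the Dlx genes were compared with the 2645 protein-coding genes marked in all 4 libraries, by the covered length within 3000 bp of any start site. It was shorter in both E17 than in both E14 libraries at 2 of the 6 Dlx genes, Dlx2 and Dlx4, against 77.8% of the 2645 genes. It was longer in both E17 libraries at 0 Dlx genes, against 0.529%. At Dlx2 it was 3550 and 4508 bp at E14 and 3441 and 2822 bp at E17. At Dlx4 it was 6463 bp in both E14 libraries and 5585 and 4812 bp at E17. Both stayed partly covered at E17, and Dlx4 began from a fully covered window. With lists of equal covered length the Dlx2 change turned to 132%, and with peaks of −log10 q of at least 5 it was −86.6%.

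Among the other 4 genes, Dlx1 and Dlx6 were fully covered near their start sites in all 4 libraries, 8668 and 6465 bp, so no gain could have been seen there. Dlx5 was fully covered, 6018 bp, in 3 libraries and at 5155 bp in E17 replicate 2. Dlx3 stood at 4931 and 5135 bp at E14 and at 5434 and 4013 bp at E17, so that the E17 libraries lay on either side of both E14 libraries. The median covered part of these windows was 100% in both E14 libraries for the Dlx genes, against 50% and 40.4% for the 2645 genes, so that a loss at the edge of a Dlx domain could fall outside the window, and the share of shorter genes is not like for like. With 5000 bp either side of the start sites, 3 Dlx genes were shorter in both E17 libraries, Dlx1 with a change of −14.1%, Dlx4 with −12.1% and Dlx5 with −11.3%. The count of 2 rested on the libraries and settings used, being 4 without E17 replicate 1 and 1 with a window of 1000 bp or with lists of equal covered length.

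The Dlx domains did not reach the start sites of the nearest protein-coding genes. Metap1d, a mitochondrial methionine aminopeptidase gene that ends inside the Dlx1-Dlx2 window, had no covered base near its start sites in any library, and its 3′ end lay under the edge of the Dlx1 peak. No library marked the start sites of Tac4, beyond Dlx4, or of Sem1 and Sdhaf3, on either side of Dlx5-Dlx6. Itga6, an integrin gene beyond Dlx2, had 1184 covered bp in E14 replicate 1 alone. A neighbour marked in all 4 libraries, by peaks of its own, was Itga3, an integrin gene 43317 bp before Dlx3, with 4510 and 4506 bp at E14 and 3280 and 2542 bp at E17. Antisense transcripts that overlap the pairs shared their cover, and Dlx1as, Dlx4os and Dlx6os1 were marked near their start sites in all 4 libraries, as was the short Dlx6os2.

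Each pair shares its chromosome with a Hox cluster, a larger homeobox array. The windows lie 3.11 Mb apart for Dlx1-Dlx2 and Hoxd and 1.04 Mb apart for Dlx3-Dlx4 and Hoxb. Dlx5-Dlx6 and Hoxa lie 45.3 Mb apart. The covered share of the Dlx1-Dlx2 window minus that of the Hoxd cluster window was −9.04 and 20.9 points at E14 and 43.7 and 41.2 points at E17. For Dlx3-Dlx4 against Hoxb it was −19.2 and 10.6 points at E14 and 20.1 and 14.3 points at E17, and for Dlx5-Dlx6 against Hoxa 9.19 and 13.8 points at E14 and 21.4 and 26.3 points at E17. In all 3 comparisons both E17 libraries lay above both E14 libraries, with mean differences between stages of 36.5, 21.5 and 12.4 points (exact permutation test, two-sided, p = 0.333 for each). At E17 each Dlx window was thus more fully covered than the Hox cluster window of its chromosome. Covered length of the Hox windows at E17 was 0.435, 0.480 and 0.795 times that at E14 for Hoxd, Hoxb and Hoxa. The Hox windows measured 106833, 183941 and 115291 bp and span whole clusters. The Dlx windows, drawn closely around 2 genes, measured 28642, 36145 and 28752 bp, so these shares are not like for like. In alternatives chosen for this comparison after seeing the data, lists of equal covered length gave 12.1, 11.6 and 1.07 points for Dlx1-Dlx2, Dlx3-Dlx4 and Dlx5-Dlx6, and the stages then overlapped for Dlx3-Dlx4 and Dlx5-Dlx6. They also overlapped for Dlx3-Dlx4 with lists of equal number, at 15.4 points, and with peaks of −log10 q of at least 5 the difference for Dlx5-Dlx6 was 24.2 points. Without E14 replicate 1, the library with the fullest Hox clusters, the differences were 21.6 points for Dlx1-Dlx2 and 6.60 points for Dlx3-Dlx4.

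The genes whose cover was most like that of each Dlx gene were found from the covered share of the gene with 5 kb on either side over the 4 libraries, by the smallest sum of absolute differences. For Dlx1 these were Nkx3-2, Tcf21 and Hmx3, and for Dlx2 they were Nkx2-6, Gdf7 and Nkx1-1. Dlx5 was nearest to Fezf1, Pitx1 and Sox14, and Dlx6 to Insl3, Foxb1 and Sox2. Dlx3 was nearest to Tmem151b, Epop and Urad, and Dlx4 to Dmrt3, Pou3f3 and Gm10837. The closest match was that of Dlx6 with Insl3, at a sum of 0.0980 points, and the loosest first match that of Dlx2 with Nkx2-6, at 10.7 points.

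The genes that work with Dlx factors were counted in the same way near their start sites, beside the 12% of protein-coding genes marked in all 4 libraries and the 77.8% of those that were shorter in both E17 libraries. Most marked genes of the forebrain and arch lists below were fully covered there in both E14 libraries. The 2645 genes had medians of 50% and 40.4%, so these shares of shorter genes are not like for like. In the forebrain GABAergic programme, to which Dlx1 and Dlx2 belong, 15 of 16 genes were marked in all 4 libraries and 4 of these were shorter in both E17 libraries. Its longest covered windows were those of Lhx6, Isl1, Gad1 and Lhx8, and Gad1, the GABA-synthesising enzyme, had 10336 covered bp in every library. In branchial arch and craniofacial patterning, the setting of Dlx5 and Dlx6, 13 of 18 genes were marked in all 4 and 4 of these were shorter at E17. Pitx1, Alx1 and Gbx2 were among the genes with the longest cover there, and the 5 unmarked genes were Edn1, Ednra, Mef2c, Prrx1 and Prrx2. Dlx5 and Dlx6 were marked in every library. Edn1 and Ednra, the ligand and receptor that switch them on in the arches, were marked in none, as were 74.1% of all protein-coding genes.

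Bone formation, in which Dlx3 and Dlx5 take part, held 5 of 14 genes marked in all 4 libraries and 8 marked in none, and 4 of the 5 were shorter at E17, a share near that of all marked genes. With lists of equal covered length, a setting added after seeing the data, 3 were marked in all 4. Sp7, the osteoblast transcription factor downstream of Dlx5, was marked at E14 alone, with 3268 and 2054 bp. Bmp4, Msx2 and Bmp2 were among the longest covered. In the epidermis and hair shaft list, where Dlx3 acts, 8 of 14 genes were marked in all 4 libraries and 5 of these were shorter at E17, with Gata3, Tfap2a, Tfap2c and Ovol1 the longest covered. Of 25 homeobox relatives of Dlx, 23 were marked in all 4 libraries, and 4 of these were shorter at E17. Most of the 23 were fully covered near their start sites in both E14 libraries, so this share too is not like for like. Emx1, Barhl1, Vax1 and Hhex were the longest covered. En1 was marked at E14 alone, with 4403 and 2270 bp, and Emx2 in no library.

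Markers of other cell types that a skin preparation could hold were read beside these lists. Peaks in all 4 libraries were found at 3 of 7 keratinocyte markers (Cdh1, Epcam and Krt1), 1 of 5 melanocyte markers (Sox10), 2 of 5 endothelial markers (Sox17 and Kdr), 3 of 5 myogenic markers (Pax7, Myod1 and Des) and 1 of 5 blood markers (Hba-a1). Of all protein-coding genes, 12% had a peak in all 4 libraries, and sets of 5 to 7 genes are too small to compare with that share. Myf5 was marked at E14 alone, with 3359 and 463 bp. So were 23.8% of the protein-coding genes marked in both E14 libraries. The other keratinocyte markers, Krt5, Krt14, Krt10 and Trp63, were unmarked in all 4 libraries, and whether other cells contributed to the Dlx cover was not tested.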

How the data were processed

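H3K27me3 ChIP-seq peak lists of 4 wild-type dermal fibroblast libraries were used, and an input library was not analysed here. The submitters' processing notes name Bowtie2 2.3.5.1, SAMtools 1.9, MACS2 2.2.7.1, deepTools 3.5.1 and mm10. Broad peaks were called per library (q-value of 0.01), and the control was not given in the sources used here. In each list the authors deposited a fold enrichment (a linear ratio over local background) and a −log10 q-value for every peak. The labels and the study's methods differ in culture medium, chromatin shearing and library kit, and subsampling of reads to a common depth is stated for later-stage wild-type samples, which the labels here do not mention. Neither depth nor the precision of a single peak can be read from the lists, and an absent peak can lie just under the threshold of its list.

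Peaks were placed on GENCODE vM21 genes (GRCm38). Covered bp, shares and percentiles of fold enrichment were computed with Python 3.11.15 and numpy 2.4.6, with an overlap of at least 1 bp, and the code was tested on simulated data. Stages were compared by a two-sided exact permutation test, 2 libraries against 2. The members and gene lists were chosen with earlier results of these data known. Genes named are the Dlx genes, genes inside the windows, the nearest protein-coding neighbours, the 3 genes most alike in cover, and, of each list, genes marked at E14 alone and up to 4 with the longest cover, except 1 that is not reported here by name. List genes named beyond that rule (Edn1, Ednra, Mef2c, Prrx1, Prrx2, Emx2 and the unmarked markers) were chosen after their values were seen. Alternatives changed the flank, the start-site window, the −log10 q and width limits, the joining of peaks within 3000 bp, the matching of list sizes and the libraries used.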

Additional observations from a re-analysis of the deposited data

How the results depend on the processing

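Across 31 results and 322 alternatives, 296 kept their direction or stayed within 1.5 times of a count, 9 turned and 17 moved to or from 0 or past 1.5 times of a count, and no p reached 0.05, which 2 libraries against 2 cannot give. The cause of each change below was not tested. With lists of equal covered length, the change from E14 to E17 turned to 10.1% for the Dlx1-Dlx2 window, 132% for the Dlx2 start-site windows and 72.6% for the Dlx2 gene. The share of the list turned to −23.9% for Dlx3-Dlx4 and −5.43% for Dlx5-Dlx6 in that setting, which was added for this measure after seeing the data. For Dlx1-Dlx2 it was 10.0%, and in that setting the share only restates covered length. With peaks closer than 3000 bp joined, the Dlx5-Dlx6 change was 0%, since joining filled the window in every library. The number of Dlx genes shorter in both E17 libraries, 2 as reported, was 1 with lists of equal covered length and 1 with 1000 bp around start sites. With −log10 q of at least 5, the change was −25.1% for the Dlx1-Dlx2 window, −86.6% for the Dlx2 start-site windows and −100% for the Dlx2 gene. Ranked by −log10 q, the percentile differences were −0.947, −1.42 and −2.26 points for Dlx1-Dlx2, Dlx3-Dlx4 and Dlx5-Dlx6, over lists of unequal length, in which a given rank is a lower percentile where the list is shorter.

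Leaving out 1 library at a time gave changes in covered length of −12.9% to −8.26% for Dlx1-Dlx2, −31.6% to −19.6% for Dlx3-Dlx4 and −7.90% to −2.72% for Dlx5-Dlx6. The share of the list changed by 66.8% to 189% for Dlx1-Dlx2, 41.8% to 131% for Dlx3-Dlx4 and 86.1% to 190% for Dlx5-Dlx6, and the difference from the Hox cluster by 21.6 to 51.5, 6.60 to 36.4 and 9.95 to 14.8 points. The difference in percentile of the strongest peak ranged from −0.458 to 0.0161 points for Dlx1-Dlx2, highest without E14 replicate 2, and from −1.15 to 0.0665 points for Dlx3-Dlx4, highest without E17 replicate 1. The change of the Dlx2 gene ranged from −13.7% to 0.670%, that of the Dlx3 start-site windows from −20.3% to 7.97%, and the count of shorter Dlx genes from 2 to 4.

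The labels number the libraries 1 and 2 at both stages, and nothing says that a number marks a shared animal or day. With the replicate number as a replicate block, the changes in covered length were −10.5%, −25.6% and −5.37% for Dlx1-Dlx2, Dlx3-Dlx4 and Dlx5-Dlx6. Same-numbered libraries deviated together with a correlation of 0.208 across 2645 genes, which are not independent replicates.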
